A study of Homo sapiens with 18 samples.

Results

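The response of GIST-T1 cells to 24 h of imatinib plus JQ1 was compared with DMSO over every gene of the expression table, in 3 libraries of each group out of 18 in the series. Imatinib and JQ1 were each given at 500 nM for 24 h, imatinib alone and JQ1 alone at the same dose and time form 3 libraries each, and the DMSO libraries carry no time in the labels, so hours in culture and treatment cannot be told apart. The remaining 6 libraries, cells after 6 h of either drug, entered the fit only to estimate the spread. GIST-T1 is 1 established human line, grown from a gastrointestinal stromal tumour, and no label tells whether its replicates were separate cultures, so p-values measure the spread between these libraries, which may be technical. Of 23621 gene rows, 12771 reached 1 FPKM in at least 3 libraries and were tested. FPKM is fragments per kilobase of transcript scaled to the number of reads, and per the labels spike-in RNA was added to RNA from counted cells. No label or header says how the deposited values were scaled.

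KIT is a receptor tyrosine kinase that is mutated and constantly active in most gastrointestinal stromal tumours, where it signals through the RAS, RAF and ERK kinases and through PI3K and AKT. Imatinib blocks the ATP site of KIT. JQ1 displaces the BET proteins from acetylated histones, where they help RNA polymerase II to leave the promoter at genes with large enhancers. ERK activity maintains mRNAs of its own feedback inhibitors, such as DUSP6 and the Sprouty genes, and AKT keeps FOXO transcription factors out of the nucleus.

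Total FPKM was 286566, 499857 and 355558 in the combination libraries, against 1833221, 2328353 and 2463615 in the DMSO libraries. The mean was 5.80-fold lower in the combination, 380660 ± 108839 against 2208396 ± 331875 in DMSO (SD, n = 3 each). An exact two-sided permutation test gave p = 0.1, the smallest that 3 against 3 libraries allow. Replicate 2 was the highest of the combination libraries and replicate 1 the lowest, for the total and for most genes below. From 9719 to 10613 genes reached 1 FPKM in the combination, against 12491 to 12754 in DMSO, and 302 to 530 genes reached 100.0 FPKM in the combination, against 1982 to 2859 in DMSO. The 3 rows named MIR1244 held 25.4% to 26.4% of the total in the combination and 33.8% to 41.4% in DMSO, and without them the fold was 4.82. The spike-in rows summed to between 6505 and 6948 in every library of the series. From these values less RNA in each cell cannot be told apart from fewer intact cells behind the same count.

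Each gene was tested with limma on log2(FPKM + 1), with p adjusted by Benjamini-Hochberg over all tested genes, and a gene was called higher or lower at an adjusted p below 0.05 with a change of at least 1 on that log2 scale. On the deposited values 30 genes rose with the combination, 0.235% of those tested, and 10984 fell, 86.0% of those tested. The median change of all tested genes was -2.05, and the 10th and 90th percentiles were -3.17 and -0.83. Since nearly every gene fell, a second scale was set beside the first: each library was divided by the median of its gene ratios, which moves the median gene to 0. On this rescaled basis 1171 genes were called higher, 9.17% of those tested, and 1296 lower, 10.1% of those tested. Higher calls made up 0.272% of all calls on the deposited scale and 47.5% on the rescaled one. All 30 genes that rose on the deposited scale were also called higher on the rescaled one, and 328 genes that fell on the deposited scale were called higher after rescaling. The plot of all changes shows both distributions.

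**Figure D1:**
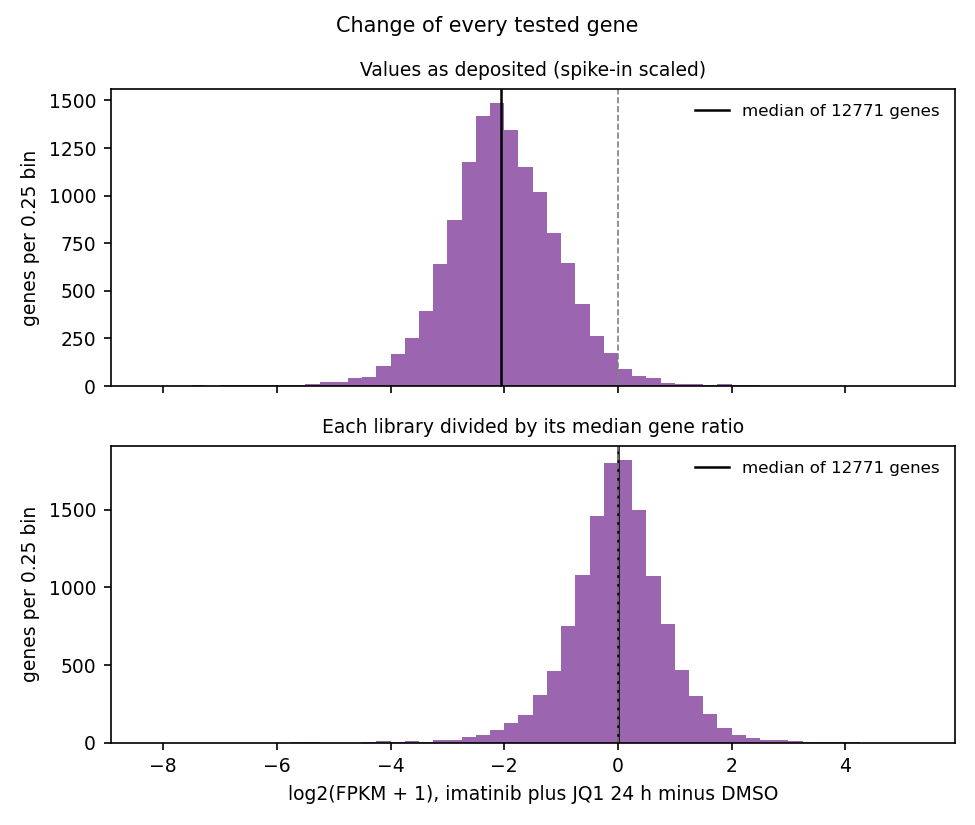
Histograms of the change of 12771 tested genes, imatinib plus JQ1 24 h minus DMSO on log2(FPKM + 1), in bins of 0.25, with the values as deposited above and after division of each library by its median gene ratio below. The black line is the median of the genes, -2.05 as deposited, and the dashed line marks 0.

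Among the genes that rose, TXNIP and ARRDC4 were also higher than with either drug alone. On the log2 scale all changes below are combination minus the named group. Both genes encode alpha-arrestins that restrain glucose uptake, and both are textbook targets of MondoA, a glucose-sensing transcription factor that pairs with MLX. TXNIP had 303, 578 and 395 FPKM in the combination, 194, 215 and 202 FPKM with imatinib alone, 169, 185 and 207 FPKM with JQ1 alone and 76.04, 93.3 and 113 FPKM in DMSO. Every combination library exceeded every library of the other groups. The change from DMSO was 2.13 ± 0.19 (SE; limma, adjusted p = 3.4e-10), a 4.52-fold difference of means, and 4.55 after rescaling. Against imatinib alone TXNIP differed by 1.01 (limma, adjusted p = 0.00015), and against JQ1 alone by 1.14 (limma, adjusted p = 0.00013).

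ARRDC4 followed the same order of groups. It had 44.8, 80.97 and 59.1 FPKM in the combination, 26.04, 28.9 and 28.2 FPKM with imatinib, 20.5, 21.8 and 24.4 FPKM with JQ1 and 12.4, 14.9 and 17.3 FPKM in DMSO. The change from DMSO was 1.95 ± 0.18 (SE; limma, adjusted p = 4.7e-10), with 1.09 against imatinib and 1.39 against JQ1, so all of the combination values again lay above all others. The genes of the factor itself did not share this direction on the deposited scale. MLXIP, which encodes MondoA, had 19.1, 33.9 and 22.6 FPKM in the combination and 91.5, 100.0 and 134 FPKM in DMSO, a change of -2.08 that became 0.30 after rescaling. MLX had 5.19, 8.49 and 6.74 FPKM in the combination and 53.5, 70.4 and 79.2 FPKM in DMSO, a change of -3.14 that shrank to -0.84 after rescaling and then was no longer called. On the rescaled values 5 genes were called higher than DMSO and than each single drug, and on the deposited scale 3 were. The third, named after its values were seen, was the microRNA gene row MIR214 at 6.11, 16.0 and 0.0857 FPKM in the combination, so 1 library was near the lowest values of the table.

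The bases before the starts of TXNIP and ARRDC4 are shown because these were the named genes that exceeded all 3 other groups. They come from RefSeq on GRCh38.p14, read 5′ to 3′ on the gene's strand, and each ends at the base before the start. TXNIP lies at chr1:145996580-145996829 on the minus strand and ARRDC4 at chr15:97960453-97960702 on the plus strand. Capitals mark GTAAACA, the forkhead motif, in TXNIP and CACGTG, the E-box, in ARRDC4.
TXNIP: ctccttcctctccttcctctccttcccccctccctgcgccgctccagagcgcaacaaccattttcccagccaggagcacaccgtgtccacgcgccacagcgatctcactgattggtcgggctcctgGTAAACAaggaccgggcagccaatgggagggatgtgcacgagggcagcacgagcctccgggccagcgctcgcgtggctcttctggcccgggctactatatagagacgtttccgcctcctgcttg
ARRDC4: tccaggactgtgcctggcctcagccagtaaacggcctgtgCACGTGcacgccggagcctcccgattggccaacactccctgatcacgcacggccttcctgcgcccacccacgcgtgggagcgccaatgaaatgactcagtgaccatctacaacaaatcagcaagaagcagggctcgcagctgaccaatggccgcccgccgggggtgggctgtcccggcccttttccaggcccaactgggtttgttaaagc
The forkhead letters of TXNIP begin at position -124 and the E-box of ARRDC4 begins at position -210 from the start. TXNIP held no exact CACGTG and ARRDC4 no exact GTAAACA in these bases. Variant forms of either motif were not searched, so a missing match does not show that a site is absent. Searched on both strands, GTAAACA occurs in 2.98% of 27305 RefSeq promoters of this length and CACGTG in 6.49%. These are matches of letters and no test of binding.

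Histone genes made up 9 of the 30 rises. Of 45 tested genes named as histones, 9 rose and 2 fell on the deposited scale, where 0.235% of all genes rose, and 32 were called higher after rescaling, where 9.17% of all genes were. Most histone mRNAs of dividing cells end in a stem-loop without a poly(A) tail, so poly(A)-selected libraries count only their polyadenylated forms. HIST1H2AC, which encodes a histone H2A, had 26.6, 47.4 and 35.9 FPKM in the combination, 14.7, 18.5 and 15.1 FPKM with imatinib, 35.6, 37.7 and 44.5 FPKM with JQ1 and 5.58, 7.74 and 6.40 FPKM in DMSO. It rose by 2.29 ± 0.21 against DMSO (SE; limma, adjusted p = 3.3e-10). The combination and JQ1 libraries overlapped, while the imatinib and DMSO libraries lay below both. HIST1H2BD, which encodes a histone H2B, had 35.9, 59.8 and 39.3 FPKM in the combination, 53.2, 65.7 and 67.9 FPKM with JQ1 and 9.27, 12.1 and 13.1 FPKM in DMSO, a rise of 1.86 against DMSO. HIST1H2AE rose by 1.63, HIST1H3H by 1.46, HIST2H2AA3 by 1.51 and HIST2H2AA4 by 1.51. The last 2 are near-identical copies whose reads cannot be separated, so they count as 1 observation, and other histone genes share sequence too. Against imatinib alone these 6 genes were higher by 1.05 to 1.93. Against JQ1 alone all 6 differences were negative on the deposited scale, from -0.49 to -0.13 and short of the size threshold, and positive after rescaling, from 0.23 to 0.59.

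The bases before the starts of HIST1H2AC (H2AC6 in RefSeq) and HIST1H2BD (H2BC5) are shown because they led the histone rises. HIST1H2AC lies at chr6:26123922-26124171 and HIST1H2BD at chr6:26157871-26158120, both on the plus strand of GRCh38.p14, and capitals mark TATAAA, the TATA box, on either strand.
HIST1H2AC: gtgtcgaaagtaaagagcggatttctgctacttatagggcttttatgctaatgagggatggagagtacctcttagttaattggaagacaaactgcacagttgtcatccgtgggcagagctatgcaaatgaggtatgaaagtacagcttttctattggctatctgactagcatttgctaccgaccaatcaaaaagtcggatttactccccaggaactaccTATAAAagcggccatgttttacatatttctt
HIST1H2BD: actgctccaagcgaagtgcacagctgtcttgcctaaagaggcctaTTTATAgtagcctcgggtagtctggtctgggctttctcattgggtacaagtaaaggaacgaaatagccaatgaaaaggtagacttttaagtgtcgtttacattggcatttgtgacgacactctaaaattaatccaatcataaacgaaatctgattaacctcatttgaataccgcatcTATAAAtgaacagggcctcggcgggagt
The letters begin at -31 in HIST1H2AC and at -28 in HIST1H2BD, which also holds them on the other strand at -205. TATAAA occurs in 11.1% of the 27305 promoters.

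Genes used as markers of BET inhibition in other cells had the highest median of the lists. Of 13 tested, 5 rose and 2 fell, beside 0.235% and 86.0% of all genes, and their median change was 0.66, beside -2.05. After rescaling 11 were called higher and 1 lower, beside 9.17% and 10.1% of all genes, with a median of 2.68. The list of 14 holds 8 histone genes, so it repeats part of that family. SERPINI1, which encodes the protease inhibitor neuroserpin, had the largest rise on log2(FPKM + 1) among named genes, with 59.9, 97.3 and 82.6 FPKM in the combination, 25.2, 28.8 and 27.9 FPKM with imatinib, 54.7, 59.7 and 61.8 FPKM with JQ1 and 9.74, 14.5 and 17.2 FPKM in DMSO. That is a rise of 2.46 ± 0.19 (SE; limma, adjusted p = 1.9e-11), with 1.49 against imatinib and 0.41 against JQ1, the last of which was called only after rescaling, at 1.14. By the ratio of group means CDKN1C and DPYSL3, at 6.15-fold and 6.07-fold, stood above SERPINI1 at 5.78-fold. HEXIM1, which holds the elongation kinase P-TEFb inactive, had 7.64, 15.1 and 8.97 FPKM in the combination, 14.6, 17.2 and 17.9 FPKM with JQ1 and 16.6, 19.6 and 25.9 FPKM in DMSO. Its change was -0.94, short of the threshold in size, and 1.33 after rescaling, so its direction turns with the scale. It was called lower when replicate 2 of the combination or replicate 1 of DMSO was left out, at -1.20 and -1.08. It was also called lower with a pseudocount of 0.01 FPKM, at -1.01, and with array weights, at -1.09. The weighted fit rested mainly on replicate 2 for its DMSO mean. ZMYND8, a reader of acetylated histones, fell on both scales, with 2.66, 4.86 and 3.17 FPKM in the combination and 52.2, 58.6 and 77.5 FPKM in DMSO, a change of -3.82, or -1.61 rescaled.

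Other named genes that rose were CDKN1C, BMF, KLHL24, PEG10 and LYRM9. CDKN1C, which encodes the CDK inhibitor p57, had 5.90, 11.6 and 6.86 FPKM in the combination and 1.24, 1.15 and 1.58 FPKM in DMSO, a rise of 1.93 ± 0.17 (SE; limma, adjusted p = 1.6e-10). With imatinib it had 4.56, 5.08 and 4.69 FPKM and with JQ1 7.01, 7.18 and 8.56 FPKM, so combination and JQ1 overlapped. BMF, a BH3-only protein that promotes apoptosis, had 14.5, 26.9 and 18.1 FPKM in the combination, 30.8, 32.7 and 33.04 FPKM with imatinib, 15.7, 17.6 and 19.7 FPKM with JQ1 and 4.42, 6.17 and 6.58 FPKM in DMSO. It rose by 1.60 against DMSO, while all imatinib libraries lay above the combination. KLHL24, an adaptor of a ubiquitin ligase, had 38.5, 68.7 and 53.8 FPKM in the combination and 11.6, 13.2 and 15.2 FPKM in DMSO, a rise of 1.90, while 61.2, 74.9 and 66.2 FPKM with imatinib and 54.7, 60.6 and 63.8 FPKM with JQ1 overlapped the combination. PEG10, an imprinted gene derived from a retrotransposon, had 358, 658 and 461 FPKM in the combination and 111, 132 and 166 FPKM in DMSO, a rise of 1.82. LYRM9, a gene of the LYR motif family, rose by 1.53, with 6.77, 11.6 and 8.68 FPKM in the combination and 2.28, 2.54 and 2.38 FPKM in DMSO. Its values of 7.21, 8.09 and 6.81 FPKM with imatinib and 8.53, 10.7 and 12.5 FPKM with JQ1 overlapped the combination.

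On the deposited scale DPYSL3, a cytoskeleton regulator of growing neurites, lay on opposite sides of DMSO with the single drugs. It had 10.1, 20.4 and 13.3 FPKM in the combination, 0.529, 0.486 and 0.607 FPKM with imatinib, 19.4, 22.03 and 24.5 FPKM with JQ1 and 2.31, 2.25 and 2.66 FPKM in DMSO. The combination was higher than DMSO by 2.14 ± 0.17 (SE; limma, adjusted p = 4.4e-11) and higher than imatinib alone by 3.29 (limma, adjusted p = 2.5e-12). Against JQ1 alone it differed by -0.61, short of the size threshold, and by 0.08 after rescaling. The plot of risen genes shows these values by library.

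Genes of the FOXO response, which FOXO factors turn on when AKT is inactive, had a median above that of all genes. Of 21 tested, 3 rose and 5 fell, beside 0.235% and 86.0% of all genes, with a median of -0.25. After rescaling 16 were called higher and 1 lower, beside 9.17% and 10.1% of all genes, with a median of 1.62. TXNIP and KLHL24 belong to this list as well. Against imatinib alone 6 genes of the list were called lower and 2 higher, beside 14.5% and 0.423% of all genes. On the rescaled values 3 were called lower than with imatinib and 2 higher, beside 5.58% and 2.37% of all genes. TNFSF10, which encodes the death ligand TRAIL, fell on both scales, with 16.6, 25.8 and 22.2 FPKM in the combination, 129.9, 156 and 140.0 FPKM with imatinib, 50.5, 53.8 and 63.6 FPKM with JQ1 and 418, 540.3 and 632 FPKM in DMSO, a change of -4.56, or -2.17 rescaled.

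In the BCL2 family, 1 of 15 tested genes rose, BMF, and 11 fell, beside 0.235% and 86.0% of all genes. After rescaling 4 were called higher and 3 lower, beside 9.17% and 10.1% of all genes. BCL2L11, which encodes the pro-apoptotic protein BIM, had 3.43, 5.75 and 4.22 FPKM in the combination and 3.55, 4.26 and 5.73 FPKM in DMSO. Both groups overlapped on the deposited scale, at a change of -0.015 (limma, adjusted p = 0.93), and the change was 1.92 after rescaling. BCL2, which blocks apoptosis, had 0.365, 0.678 and 0.426 FPKM in the combination and 14.2, 15.9 and 19.2 FPKM in DMSO, a change of -3.54, or -1.90 rescaled. BCL2L1, which encodes the survival protein BCL-XL, changed by -3.52, or -1.21 rescaled, and BID, which links death receptors to mitochondria, by -4.23, or -2.09 rescaled. All 3 of these genes were called lower on both scales.

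KIT itself had 12.8, 19.5 and 16.5 FPKM in the combination, 136, 155 and 142 FPKM with imatinib, 37.5, 42.4 and 49.3 FPKM with JQ1 and 529, 626 and 777 FPKM in DMSO. The 4 groups did not overlap, and the combination was the lowest. KIT changed by -5.22 ± 0.18 against DMSO (SE; limma, adjusted p = 5.4e-17), a 39.6-fold difference of means, and by -2.84 after rescaling. The difference was -3.09 from imatinib alone (limma, adjusted p = 7e-12) and -1.36 from JQ1 alone (limma, adjusted p = 8.1e-06).

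All 16 tested genes of the GIST lineage list fell, beside 86.0% of all genes, with a median of -3.08 beside -2.05. After rescaling 7 were called lower, beside 10.1% of all genes, with a median of -0.80. The transcription factor HAND1, which drives the KIT programme in these tumours, had 10.4, 19.8 and 11.5 FPKM in the combination and 132, 165 and 205 FPKM in DMSO, a change of -3.53, or -1.16 rescaled. ETV1, the ETS factor of the interstitial cells of Cajal, had 13.05, 21.1 and 16.7 FPKM in the combination and 82.5, 99.6 and 119.7 FPKM in DMSO, and FOXF1, a forkhead factor upstream of both KIT and ETV1, had 61.5, 112 and 71.98 FPKM in the combination and 339.9, 427 and 538 FPKM in DMSO. Both lay close to the median gene, since ETV1 changed by -2.51 and -0.14 rescaled and FOXF1 by -2.42 and 0.0039 rescaled. PDGFRA, the receptor kinase related to KIT, changed by -2.09, with 7.60, 12.4 and 9.69 FPKM in the combination and 36.97, 43.9 and 55.2 FPKM in DMSO, but lay above the median gene by 0.22 after rescaling.

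The diagnostic marker ANO1, a calcium-activated chloride channel, changed by -4.12, or -1.74 rescaled, with 15.05, 24.4 and 17.5 FPKM in the combination and 285, 327 and 425 FPKM in DMSO. CD34, a surface sialomucin of these tumours, had 124, 222 and 150.1 FPKM in the combination, 483, 502 and 467 FPKM with imatinib, 661, 776 and 907 FPKM with JQ1 and 3253, 3934 and 5009 FPKM in DMSO, a change of -4.63, or -2.20 rescaled. GPR20, an orphan receptor of the same tumours, changed by -4.27 and the repressor HIC1 by -5.01. Both were lower than with either drug alone on the deposited scale. KITLG, the ligand of KIT, had 1.56, 2.44 and 2.13 FPKM in the combination, 1.08, 1.44 and 1.27 FPKM with imatinib, 2.90, 3.53 and 3.62 FPKM with JQ1 and 15.9, 18.5 and 20.5 FPKM in DMSO. It changed by -2.67 against DMSO, or -0.63 rescaled, where it was no longer called. On the deposited scale the combination lay above imatinib alone by 0.42, a difference too small to be called.

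Genes kept on by ERK had the lowest median of the lists, with 16 of 17 called lower, beside 86.0% of all genes, and a median of -3.50. After rescaling 11 were called lower, beside 10.1% of all genes, with a median of -1.58. DUSP6, the phosphatase that inactivates ERK, had 0.417, 0.416 and 0.471 FPKM in the combination, 1.01, 0.9996 and 1.05 FPKM with imatinib, 9.96, 13.3 and 14.7 FPKM with JQ1 and 181, 238 and 306 FPKM in DMSO. It changed by -7.37 ± 0.19 (SE; limma, adjusted p = 1.3e-18), and of the other groups imatinib lay nearest to the combination. SPRY4, a Sprouty inhibitor of receptor signalling, had 0.287, 0.361 and 0.236 FPKM in the combination, 2.15, 2.51 and 2.40 FPKM with imatinib, 8.84, 10.9 and 12.9 FPKM with JQ1 and 172, 202 and 261 FPKM in DMSO, a change of -7.34. Its relative SPRY2 changed by -6.08, with 6.75, 11.03 and 7.77 FPKM in the combination and 512, 629 and 777 FPKM in DMSO. Both Sprouty genes were called lower than with either drug alone on the deposited scale. After rescaling 2 of the 17 genes were called lower than with imatinib, beside 5.58% of all genes. Against JQ1 6 were, beside 0.814% of all genes.

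The ETS factors ETV4 and ETV5, which ERK induces, did not follow one order of groups. ETV4 had 0.195, 0.391 and 0.192 FPKM in the combination, 0.215, 0.206 and 0.138 FPKM with imatinib, 1.62, 1.82 and 2.32 FPKM with JQ1 and 61.2, 72.1 and 94.2 FPKM in DMSO, so combination and imatinib overlapped at low levels. ETV5 had 2.67, 4.93 and 3.32 FPKM in the combination, 0.575, 0.556 and 0.516 FPKM with imatinib, 24.5, 28.3 and 33.9 FPKM with JQ1 and 199.9, 243 and 295 FPKM in DMSO. ETV5 changed by -5.75 against DMSO, yet the combination was higher than imatinib alone by 1.55 (limma, adjusted p = 3.1e-07). CCND1, the D cyclin that ERK and other mitogenic signals raise, had 1.07, 2.07 and 1.52 FPKM in the combination, 12.4, 12.4 and 12.3 FPKM with imatinib, 3.47, 4.58 and 4.81 FPKM with JQ1 and 56.9, 72.8 and 91.9 FPKM in DMSO. It changed by -4.87, or -2.82 rescaled, and was lower than with either drug alone on the deposited scale.

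On log2(FPKM + 1) the steepest fall among the named genes was that of TMEM100, and the chemokine gene XCL1 was next. By the ratio of group means the order was another one: SPRY4 was 718-fold and DUSP6 556-fold lower, against 369-fold for TMEM100 and 189.8-fold for XCL1. CXCL10, at means of 0.0609 FPKM in the combination and 71.9 FPKM in DMSO, stood above SPRY4 by that ratio. Its combination values were near the lowest of the table. CTSL1P8 and PCDH12 also stood above TMEM100 by that ratio. TMEM100, a membrane protein known as a target of BMP signalling in endothelium, had 1.30, 1.67 and 1.77 FPKM in the combination, 15.7, 17.6 and 16.4 FPKM with imatinib, 22.02, 26.9 and 30.7 FPKM with JQ1 and 457, 598 and 696 FPKM in DMSO. It changed by -7.81 ± 0.17 (SE; limma, adjusted p = 2.2e-19), or -5.72 rescaled, and differed from imatinib and JQ1 alone by -2.77 and -3.41. XCL1 had 10.5, 15.7 and 13.4 FPKM in the combination, 452, 508 and 476 FPKM with imatinib, 60.5, 70.9 and 90.2 FPKM with JQ1 and 1933, 2598 and 2982 FPKM in DMSO. It changed by -7.46 against DMSO, and by -5.09 and -2.40 against imatinib and JQ1 alone. XCL2, a near-identical copy that can share its reads, had 5.62, 9.18 and 5.92 FPKM in the combination and 1005, 1328 and 1419 FPKM in DMSO and changed by -7.32. DKK4, a secreted Wnt antagonist, changed by -6.36, with 2.14, 3.19 and 2.65 FPKM in the combination and 239.8, 301 and 368 FPKM in DMSO. NPR3, the clearance receptor of natriuretic peptides, changed by -5.08, with 7.76, 13.8 and 10.4 FPKM in the combination and 323, 374 and 470.0 FPKM in DMSO. These 5 genes, with GPR20, HIC1 and the readthrough row C1orf151-NBL1, led 229 genes that were lower than DMSO and than each single drug on the deposited scale. Counted over all tested genes on the rescaled values, 28 genes were lower than all of these groups.

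FABP4, a fatty acid carrier, had 13.3, 19.8 and 16.9 FPKM in the combination, 29.4, 33.5 and 31.9 FPKM with imatinib, 169, 186 and 219 FPKM with JQ1 and 1007, 1432 and 1487 FPKM in DMSO, a change of -6.21. FABP5, its relative with processed pseudogenes that may take some of its reads, changed by -6.50, with 43.3, 64.3 and 49.4 FPKM in the combination and 3728, 5023 and 5770.4 FPKM in DMSO. MGLL, which cleaves monoacylglycerols, changed by -6.34, with 1.02, 1.62 and 1.03 FPKM in the combination and 147, 172 and 223 FPKM in DMSO, and imatinib alone kept a higher level at 18.1, 18.3 and 17.97 FPKM. CHODL, a membrane lectin, had 6.62, 10.6 and 8.94 FPKM in the combination and 682, 837 and 959 FPKM in DMSO, a change of -6.42. NME1, a nucleoside diphosphate kinase whose locus overlaps a readthrough with NME2, changed by -6.09, PCDH12, a protocadherin, by -5.89, and the cathepsin L pseudogene CTSL1P8 by -7.20. The plot of fallen genes shows 6 genes by library.

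**Figure D2:**
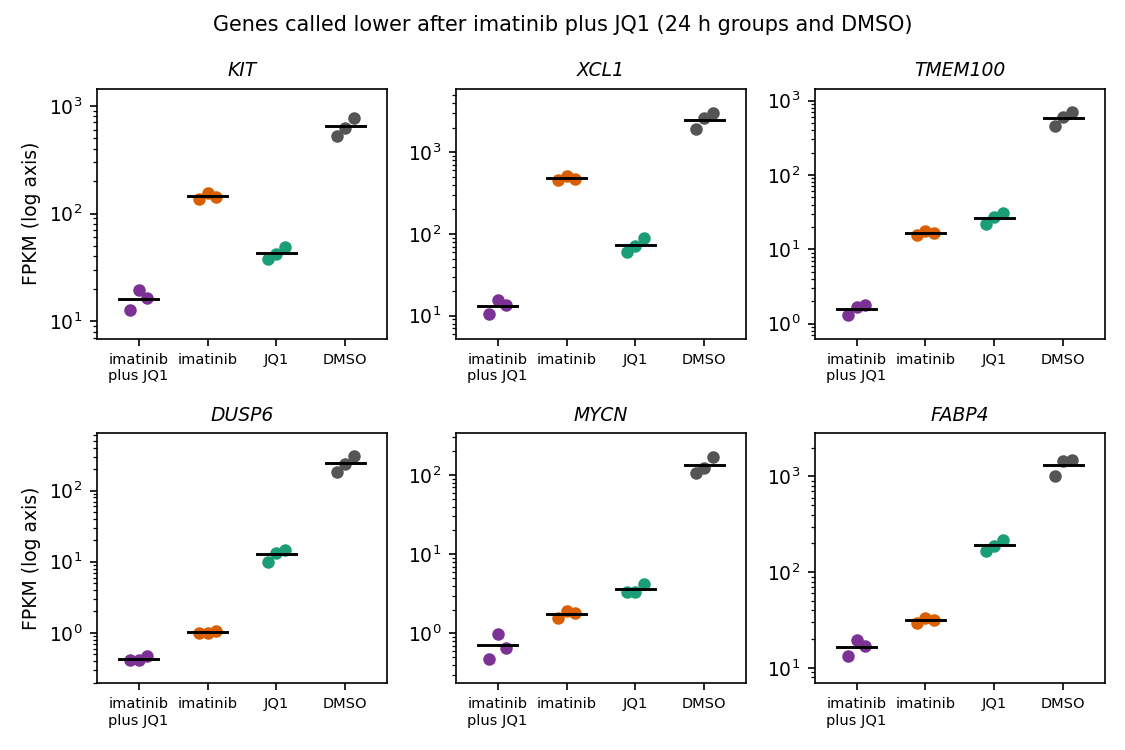
FPKM of 6 genes in each library of imatinib plus JQ1, imatinib, JQ1 (24 h each) and DMSO on log axes, with 3 points a group and a black bar at the mean. All 6 genes have every combination point below all others. KIT and XCL1 lie nearer to JQ1 than to imatinib, and TMEM100, DUSP6, MYCN and FABP4 lie nearer to imatinib.

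MYCN, the MYC family member with the higher level in DMSO, had 0.480, 0.985 and 0.661 FPKM in the combination, 1.56, 1.90 and 1.83 FPKM with imatinib, 3.35, 3.37 and 4.27 FPKM with JQ1 and 107, 123 and 168 FPKM in DMSO. It changed by -6.28 ± 0.16 (SE; limma, adjusted p = 1.6e-18), or -4.43 rescaled. MYC had 0.688, 0.738 and 0.611 FPKM in the combination, 2.17, 2.02 and 2.07 FPKM with imatinib, 0.481, 0.580 and 0.869 FPKM with JQ1 and 3.76, 4.33 and 5.21 FPKM in DMSO, a change of -1.69 that was -0.15 after rescaling and then not called. Combination and JQ1 overlapped for MYC. Of 12 tested genes of the MYC network 9 fell, beside 86.0% of all genes, with a median of -1.74. After rescaling 3 were called higher and 1 lower, beside 9.17% and 10.1% of all genes.

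Every tested gene of DNA replication, 38 of 38, and of mitosis, 34 of 34, fell with the combination, where 86.0% of all genes fell. The medians were -3.38 for replication and -2.90 for mitosis, and 20 and 9 genes were called lower after rescaling, beside 10.1% of all genes. RRM2, a subunit of ribonucleotide reductase, had 13.9, 25.8 and 17.9 FPKM in the combination, 20.2, 21.7 and 20.7 FPKM with imatinib, 105, 124 and 132 FPKM with JQ1 and 608, 779 and 926 FPKM in DMSO. It changed by -5.28 ± 0.19 (SE; limma, adjusted p = 1.8e-16), and combination and imatinib overlapped. UHRF1, which maintains DNA methylation at the fork, changed by -4.60, or -2.31 rescaled. In mitosis, the ubiquitin-conjugating enzyme UBE2C changed by -4.22 and the kinase AURKA by -3.98. Against JQ1 alone 32 replication genes and 31 mitosis genes were lower, beside 7.35% of all genes, and after rescaling 3 and 1 were, beside 0.814% of all genes. No gene of either list was lower than with imatinib alone, beside 14.5% of all genes. Their medians against imatinib were -0.23 and -0.10, beside -0.50 for all genes. After rescaling 2 replication and 5 mitosis genes were higher than with imatinib alone, beside 2.37% of all genes.

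Of 20 tested genes of cell cycle entry, mostly cyclins, CDKs and CDK inhibitors, 17 fell, near the 86.0% of all genes, and 1 rose, CDKN1C. Their median was -2.87, beside -2.05 for all genes. After rescaling 7 were called lower and 3 higher, beside 10.1% and 9.17% of all genes. CDKN1B, which encodes the CDK inhibitor p27, had 25.8, 47.5 and 35.01 FPKM in the combination and 109, 134 and 165 FPKM in DMSO, a change of -1.90 that was called on the deposited scale and became 0.49 after rescaling. CDKN1A, which encodes p21, had 0.697, 1.29 and 0.571 FPKM in the combination, 0.337, 0.232 and 0.257 FPKM with imatinib, 1.80, 1.97 and 2.34 FPKM with JQ1 and 1.84, 2.66 and 2.68 FPKM in DMSO. Its change of -0.88 missed the size threshold and was 0.50 after rescaling, and without replicate 2 of the combination or replicate 1 of DMSO it was called lower, at -1.04 and -1.01. It was also called lower with pseudocounts of 0.1 and 0.01 FPKM, at -1.44 and -1.545, and with array weights, at -1.03. The DMSO mean of that weighted fit rested mainly on replicate 2. Of 23 p53 targets, 15 fell, a smaller share than the 86.0% of all genes. After rescaling 10 were called higher and 4 lower, beside 9.17% and 10.1% of all genes. The death receptor gene FAS changed by -4.47, or -2.21 rescaled, and the nuclease AEN by -4.19, or -2.60 rescaled.

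Genes that build ribosomes lay below the median gene and genes of ribosomal proteins above it. All 33 tested ribosome biogenesis genes fell, beside 86.0% of all genes, with a median of -3.45. After rescaling 20 were called lower, beside 10.1% of all genes, with a median of -1.25. NOP16, a nucleolar protein, had 4.54, 7.35 and 4.71 FPKM in the combination and 122, 148 and 186 FPKM in DMSO, a change of -4.56, and RRS1, a ribosome assembly regulator, changed by -4.49. Of 59 cytosolic ribosomal protein genes 58 fell, but with a median of -1.61, and 17 were called higher after rescaling, beside 9.17% of all genes, with a median of 0.82. RPL35 changed by -2.27, or 0.17 rescaled, the furthest fall of that list. Many ribosomal protein genes have processed pseudogenes that can share their reads.

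The BET and elongation genes had a median near that of all genes. Of 20 genes of the BET proteins and P-TEFb 17 fell, near the 86.0% of all genes, with a median of -2.12. After rescaling 3 were called higher and 1 lower, beside 9.17% and 10.1% of all genes. AFF1, a scaffold of the super elongation complex, changed by -3.66, or -1.51 rescaled. All 38 general transcription genes, which encode RNA polymerase II subunits, general factors and Mediator, fell, beside 86.0% of all genes, with a median of -2.48, and their median was -0.11 after rescaling.

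In metabolism, all 23 glycolysis genes fell, beside 86.0% of all genes, with a median of -2.56. After rescaling 7 were called lower and 1 higher, beside 10.1% and 9.17% of all genes. ENO1, enolase, had 47.9, 98.4 and 60.7 FPKM in the combination and 1087, 1358 and 1615 FPKM in DMSO, a change of -4.32, and HK2, a hexokinase, changed by -3.89. GAPDH, another glycolytic enzyme often used as a reference, changed by -2.46, or -0.025 rescaled, whereas ACTB, cytoskeletal actin, changed by -4.01, or -1.57 rescaled. All 41 nuclear genes of oxidative phosphorylation fell, beside 86.0% of all genes, with medians of -2.43 and -0.02 on the deposited and rescaled values. All 21 cholesterol synthesis genes fell, beside 86.0% of all genes, with a median of -2.30, and 15 of them were lower than with JQ1 alone, beside 7.35% of all genes. After rescaling 3 of them were, beside 0.814% of all genes. STARD4, a sterol carrier, was called lower than with imatinib and with JQ1 alone on the deposited scale, at -1.16 and -1.71. All 21 genes of the ATF4 and amino acid response fell, beside 86.0% of all genes, and 8 were called lower and 1 higher after rescaling, beside 10.1% and 9.17% of all genes. STC2, a secreted glycoprotein, changed by -5.27 and the pseudokinase TRIB3 by -4.48. NUPR1, a stress-induced chromatin protein, had 5.51, 10.7 and 6.76 FPKM in the combination, 79.7, 79.01 and 80.5 FPKM with imatinib, 7.99, 10.8 and 12.3 FPKM with JQ1 and 110.1, 144 and 175 FPKM in DMSO, so the combination overlapped JQ1 and lay below imatinib.

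Autophagy and lysosome genes stood above the median gene, with 25 of 29 called lower, near the 86.0% of all genes, at a median of -1.59. After rescaling 10 were called higher, beside 9.17% of all genes, at a median of 0.83. TFE3, a transcription factor of lysosomal genes, went against this, with a change of -2.99, or -0.77 rescaled. All 27 tested interferon response genes fell, beside 86.0% of all genes, with a median of -2.67, and 13 were called lower after rescaling, beside 10.1% of all genes. The chemokine CXCL10 had 0.0461, 0.0840 and 0.0525 FPKM in the combination, 0.0704, 0.146 and 0.144 FPKM with imatinib, 2.68, 3.14 and 2.76 FPKM with JQ1 and 56.7, 74.002 and 85.02 FPKM in DMSO. The first 2 groups were near the lowest values of the table. RTP4, an interferon-induced chaperone of receptors, had 0.581, 1.08 and 0.777 FPKM in the combination, 19.3, 23.6 and 23.4 FPKM with imatinib, 0.732, 0.788 and 1.31 FPKM with JQ1 and 44.5, 56.7 and 61.3 FPKM in DMSO, so the combination overlapped JQ1. OAS3, a sensor of double-stranded RNA, changed by -4.57 and IFIT3, an antiviral protein, by -4.50. All 9 tested NF-kB and cytokine genes fell, beside 86.0% of all genes, XCL1 and XCL2 among them, and the monocyte chemokine CCL2 changed by -5.31, with 0.204, 0.587 and 0.199 FPKM in the combination and 40.2, 52.99 and 63.1 FPKM in DMSO.

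Of 15 immediate early genes 11 fell, beside 86.0% of all genes, with a median of -1.53. After rescaling 4 were called higher, beside 9.17% of all genes, and the median was 0.34. Of 16 smooth muscle and contractile genes 13 fell, near the 86.0% of all genes. After rescaling 6 of them were called lower and 1 higher, beside 10.1% and 9.17% of all genes, with a median of -0.23. CALD1, caldesmon, was at -4.88 and SMTN, smoothelin, at -3.94. Of 22 matrix genes 20 fell, near the 86.0% of all genes, with a median of -1.66. After rescaling the matrix median was 0.47, so its sign turned, and 4 were called higher and 1 lower, beside 9.17% and 10.1% of all genes. THBS1, thrombospondin, was at -3.76. The plot of lists gives all members on both scales.

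**Figure D3:**
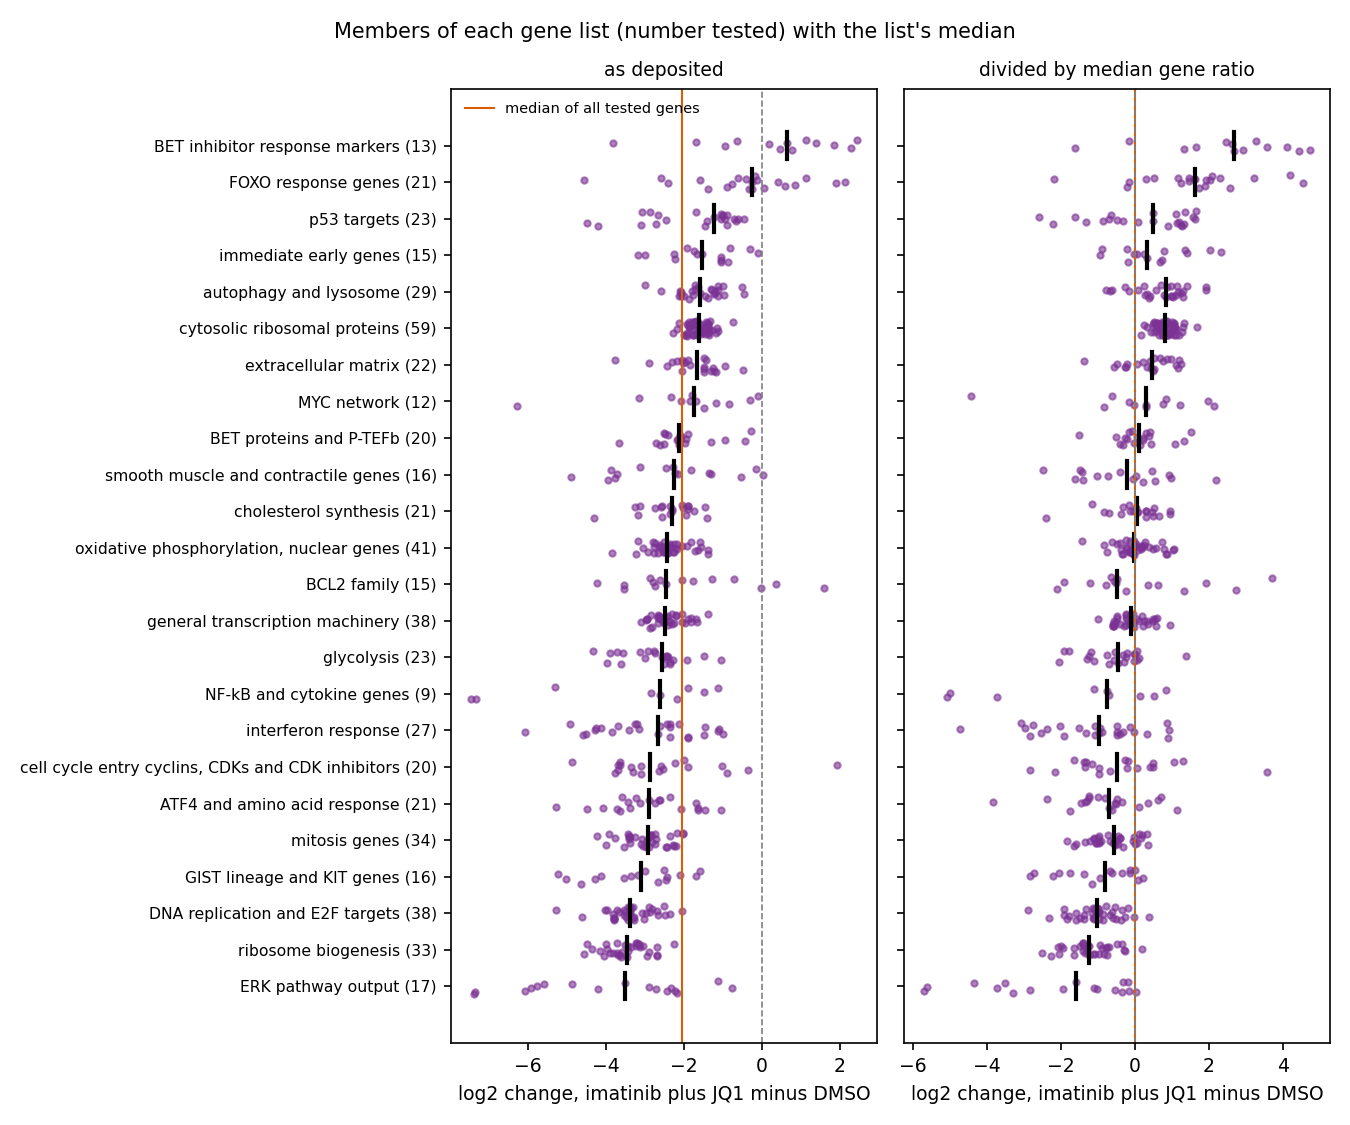
Change of each tested member of 24 gene lists, imatinib plus JQ1 24 h minus DMSO on log2(FPKM + 1), one row a list with its number of tested members, as deposited at left and after division by the median gene ratio at right. Black bars are list medians and the orange line is the median of all genes; BET inhibitor response markers stand highest and ERK pathway output lowest.

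Set against imatinib alone, the combination was lower for 1858 genes, 14.5% of those tested, and higher for 54, 0.423%. After rescaling 713 genes were lower, 5.58%, and 303 higher, 2.37%. The median gene differed by -0.50. Set against JQ1 alone, the combination was lower for 939 genes, 7.35%, and higher for 6, 0.0470%, with a median of -0.54. After rescaling these counts were 104 lower, 0.814%, and 29 higher, 0.227%. Replicate 2 of the combination decides much of both comparisons: without it 2882 genes were lower than imatinib and 2365 lower than JQ1, with 28 and 2 genes higher. Without replicate 1 of the combination 459 genes were lower than JQ1. Total FPKM was 380660 ± 108839 in the combination, 480241 ± 34281 with imatinib and 627205 ± 55556 with JQ1 (SD, n = 3 each; exact two-sided permutation p = 0.3 and p = 0.1).

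Markers of other cell types were mostly absent. Of 13 leukocyte markers 11 stayed under 1 FPKM in every library, as did 8 of 9 endothelial, 10 of 13 neural and glial and 8 of 11 epithelial markers. Their summed level was 1.73 to 2.56 FPKM in the combination and 14.4 to 18.4 FPKM in DMSO for leukocyte markers, and 0.868 to 1.05 FPKM in the combination and 3.92 to 4.39 FPKM in DMSO for endothelial markers. For neural and glial markers it was 18.6 to 36.5 FPKM in the combination and 151 to 243 FPKM in DMSO. The epithelial sum, 17.1 to 30.0 FPKM in the combination and 417 to 665 FPKM in DMSO, was almost all KRT18, a keratin found in many lines, which changed by -4.69. KIT, ANO1 and CD34, which define these tumours, were present in every DMSO library. The marker sums were lower in the combination as nearly all genes were, and their part in the results was not tested.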

How the data were processed

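Per the labels' protocols, RNA from counted GIST-T1 cells received ERCC spike-ins, and poly(A) libraries were sequenced. STAR, Cufflinks and hg19 are named per the submitters' processing notes, without versions. The authors deposited 1 table of FPKM values that its name calls normalized. How they were normalized is not stated in the labels or headers, but the spike-in rows have nearly equal sums in all libraries. Depth is unknown. One JQ1 24 h column has a number that no title carries and was used as an unnumbered library of its group.

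Genes that reached 1 FPKM in 3 or more libraries were fitted with limma 3.58.1 in R 4.3.3 on log2(FPKM + 1), with 1 mean for each of the 6 groups, a variance trend and 12 residual degrees of freedom. The added 1 understates the change of low genes. The fit was tested on simulated data. The lists, fixed genes and members were chosen with earlier results of these data known. Named genes are 23 fixed ones, the largest calls on each scale without overlapping libraries and averaging 5 FPKM or more where higher, up to 4 called genes a list, genes beyond all 3 groups, and the highest-level genes. Gene rows of small RNAs, clones and dates were counted but otherwise not named. Of 12771 tested genes 9928 matched a RefSeq promoter, too few to compare gene sets. Mitochondrially encoded genes were not analysed here. Alternatives changed the pseudocount, filter, scaling, weights, samples fitted and replicate block, and left out each library.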

Additional observations from a re-analysis of the deposited data

How the results depend on the processing

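Genes called higher than DMSO numbered 53 and 62 with pseudocounts of 0.1 and 0.01 FPKM, 82 at a size of log2 0.5 and 7 at log2 2, where 6685 were lower. They numbered 1171 with ratio rescaling, beside 1296 lower, and 902 with total rescaling without MIR1244, beside 1659 lower. The median gene was at -2.43 with the pseudocount of 0.01 FPKM, at -0.74 with no filter, at -0.0048 with ratio rescaling and at -0.12 with total rescaling. Against imatinib 24 h, higher and lower genes numbered 103 and 3355 with the pseudocount of 0.1, 132 and 3627 with 0.01, 303 and 713 with ratio rescaling, 170 and 1055 with total rescaling, and 26 and 2971 with array weights. Against JQ1 24 h they numbered 10 and 1893, 12 and 2258, 29 and 104, 27 and 111, and 2 and 2314 in the same order, with 3 higher under no filter and 24 higher in a fit of the 2 groups only. The array weights were very uneven, at 20200 for DMSO replicate 2 against 0.167 and 0.141 for DMSO replicates 1 and 3. JQ1 24 h replicate 2 had 1680 and combination replicate 3 had 5.44e-05. The weighted fit so rested mainly on single libraries of DMSO and JQ1 24 h.

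Leaving out each library in turn gave 24 to 41 higher and 10680 to 11277 lower genes against DMSO, 28 to 64 and 1357 to 2882 against imatinib, 2 to 8 and 459 to 2365 against JQ1, a median gene between -2.22 and -1.90, and a ratio of total FPKM to DMSO between 0.145 and 0.194.

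With the replicate block 31 genes were higher and 10986 lower than DMSO, and no named gene changed its call. Deviations from the group means of same-numbered combination and DMSO libraries correlated with r of 0.193, 0.027 and -0.035. After rescaling r was 0.079, -0.026 and -0.03. Combination replicate 2 correlated best with DMSO replicate 3, at 0.175, and the highest r of all pairs was that of the libraries numbered 1. These r also carry the total level of each library, so they cannot tell whether the numbers pair the samples.

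Under ratio rescaling, then total rescaling, the sign turned for PDGFRA (0.22, 0.078), HEXIM1 (1.33, 1.19), BCL2L11 (1.92, 1.81), CDKN1A (0.50, 0.42), CDKN1B (0.49, 0.35), MLXIP (0.30, 0.15), RPS27 (1.10, 0.95), RPL35 (0.17, 0.018), TMSB4X (0.27, 0.12) and TPT1 (1.05, 0.90), and for FOXF1 under ratio rescaling (0.0039). BCL2L11 lay between -0.18 and 0.14 when single libraries were left out, turning to 0.14 without DMSO replicate 3, and to 0.13 and 0.0078 without combination replicates 1 and 3. The cause was not tested beyond the construction of each scale. Of 89 genes examined, the others kept their direction under these alternatives, and all 89 kept their call under no filter, where tested, and in the fit of 2 groups. FPKM hold no read counts, so low levels have no counting limit.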

Other observations

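Rows of small RNAs set aside, among them MIR1244-2 and MIR1244-3 with the highest values of all, the 10 genes with the highest level in the combination were TMSB4X, RPS27, RPS21, TPT1, RPS12, EEF1A1, RPS18, RPL41, FTL and RPL39, of which 6 encode ribosomal proteins. TMSB4X, which encodes the actin-binding thymosin beta 4, had 2755, 4407 and 3379 FPKM in the combination, 7261, 7889.7 and 7405 FPKM with imatinib, 6341, 6646 and 7574 FPKM with JQ1 and 12654, 16588 and 17713 FPKM in DMSO, a change of -2.17 that became 0.27 after rescaling. RPS27 had 2687, 4277 and 3445 FPKM in the combination and 6829.7, 8896 and 10478 FPKM in DMSO, a change of -1.34 that became 1.10 after rescaling. TPT1, the translationally controlled tumour protein, had 1914, 2989.6 and 2519 FPKM in the combination and 5111, 6730.0 and 7471 FPKM in DMSO, a change of -1.39 that became 1.05 after rescaling.

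Split by mean FPKM over all 18 libraries, the share of genes called higher after rescaling was 3.68% of 843 genes under 1 FPKM, 11.5% of 2927 genes at 1 to 5, 10.2% of 4268 at 5 to 20, 7.57% of 3594 at 20 to 100 and 8.60% of 1139 above that. The share called lower was 0.474%, 7.41%, 11.2%, 12.4% and 13.1% in the same bins. The median change on the deposited scale was -0.91 in the lowest bin and -2.46 in the highest, while the ratio of group means gave medians of -2.41 and -2.44, so the added 1 FPKM shrank the change of low genes.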
